A study of Rattus norvegicus with 6 samples.

Results

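The genes examined encode voltage-gated calcium and sodium channels, HCN pacemaker channels, TRP cation channels, the calcium release channels of the endoplasmic reticulum (ER), the proteins of store-operated calcium entry, and the calcium pumps. They were chosen by gene symbol, without use of expression differences: 73 genes of the deposited table matched, and the 70 with 10 or more counts over the 6 libraries were kept, of 21553 named genes in all. The 3 below that minimum were Cacnb2, Trpc7 and Trpv6. RNA came from INS-1, an insulin-secreting line grown from a rat insulinoma and used here at passage 7 to 15. The series set INS-SMA cells (SMA overexpression; lentivirus carried a gene for α-smooth muscle actin, n = 3) against INS-MOCK cells (labelled wild type, n = 3), described as biological replicates. The labels do not say whether INS-MOCK cells also received a lentivirus, which promoter drove the transgene, or whether either line is a clone. The gene classes named at the start cover 69 of the 70 members. They include subunits that form no pore, calcium pumps and the ER sensors Stim1 and Stim2, which are not channels. Trpc4ap matches the symbol pattern but is in none of these classes. It encodes a protein associated with TRPC4 and an adaptor of a ubiquitin ligase.

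In beta cells, glucose metabolism closes potassium channels, the membrane depolarises, and voltage-gated calcium channels open, so that calcium enters and triggers exocytosis of insulin. Sodium channels and HCN channels shape the electrical activity. Calcium is then cleared by pumps of the ER, the Golgi and the plasma membrane, is released again from the ER through IP3 and ryanodine receptors, and can enter through Orai channels once the ER sensors Stim1 or Stim2 detect an empty store. TRP channels are cation channels that respond to receptors, temperature, lipids or calcium itself.

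The INS-SMA libraries held 24719503 to 39608609 counts and the INS-MOCK libraries 34471794 to 37466920. Rows with no gene name took 35.8% to 36.7% of counts in INS-SMA and 32.7% to 33.0% in INS-MOCK, so a member whose reads fell in such a row would be underestimated. The human ACTA2 sequence held 941093 to 1141322 counts per INS-SMA library and 103 to 167 per INS-MOCK library. All 8 beta cell markers were found, and their summed level was 2053 to 2873 CPM (counts scaled to a common library size, with TMM factors) in INS-SMA and 26708 to 28942 CPM in INS-MOCK. Ins1 and Ins2 made up most of that sum; they fell, as did Pdx1, Nkx6-1 and Neurod1, and Iapp (log2 fold change 2.30), Slc2a2 (-0.30) and Mafa (-1.67) did not pass. The 2 of 4 alpha cell markers found summed to 24.4 to 30.1 CPM in INS-SMA and 692 to 749 CPM in INS-MOCK, and the 1 of 2 delta cell markers found stayed at or below 0.117 CPM in INS-SMA and 0.124 CPM in INS-MOCK. Of 5 neuron markers 4 were found, and their sum was 127 to 130.4 CPM in INS-SMA and 116 to 124 CPM in INS-MOCK. The sum over 4 of 5 muscle markers was 3.58 to 4.59 CPM in INS-SMA and 1.03 to 2.20 CPM in INS-MOCK. For 5 of 5 fibroblast markers it was 9.09 to 10.5 CPM in INS-SMA and 13.5 to 16.9 CPM in INS-MOCK, and for 3 of 4 immune markers 1.63 to 2.16 CPM in INS-SMA and 0.124 to 0.896 CPM in INS-MOCK. Pdgfra made up most of the fibroblast sum, with means of 8.24 CPM in INS-SMA and 15.3 CPM in INS-MOCK. The means of Col1a1, Col1a2, Dcn and Lum were higher in INS-SMA, at 0.735 CPM or less. Ptprc, which encodes a leukocyte surface phosphatase, the muscle gene Tnnt2 and the fibroblast genes Dcn, Lum and Col1a2 were at 0 counts in all INS-MOCK libraries, and the muscle gene Cnn1 and the macrophage gene Aif1 were at 0 in all INS-SMA libraries. The part of other cell types in the results below was not tested.

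Of the 70 members, 59 passed a filter on low counts and were tested. N-type and R-type calcium channel genes, the ER release genes Itpr1, Ryr1 and Ryr3, and Orai2 rose in INS-SMA. The T-type channel gene Cacna1g, the ER release gene Itpr3 and the ER pump genes Atp2a2 and Atp2a3 fell. The other store-operated entry genes, Orai3, Stim1 and Stim2, did not pass. In edgeR's quasi-likelihood test with Benjamini-Hochberg adjustment over all 13363 tested genes, 20 members rose and 11 fell in INS-SMA at an adjusted p of 0.05, and 28 did not pass. That is 33.9% and 18.6% of the tested members, beside 28.1% and 27% of all tested genes, so the share of members past the threshold (52.5%) was near the background of 55.1%. The median log2 fold change (log2FC) was 0.12 over the tested members and 0.03 over all tested genes. At least 2-fold changes were found for 8 of the members that rose and 6 of those that fell, of 59, and for 2078 and 1667 of all 13363 tested genes. The groups did not overlap in 39 tested members (66.1%, background 65.3%). In a culture, a lower value can mean fewer cells that carry the transcript or less of it per cell, and these cannot be told apart.

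**Figure D1:**
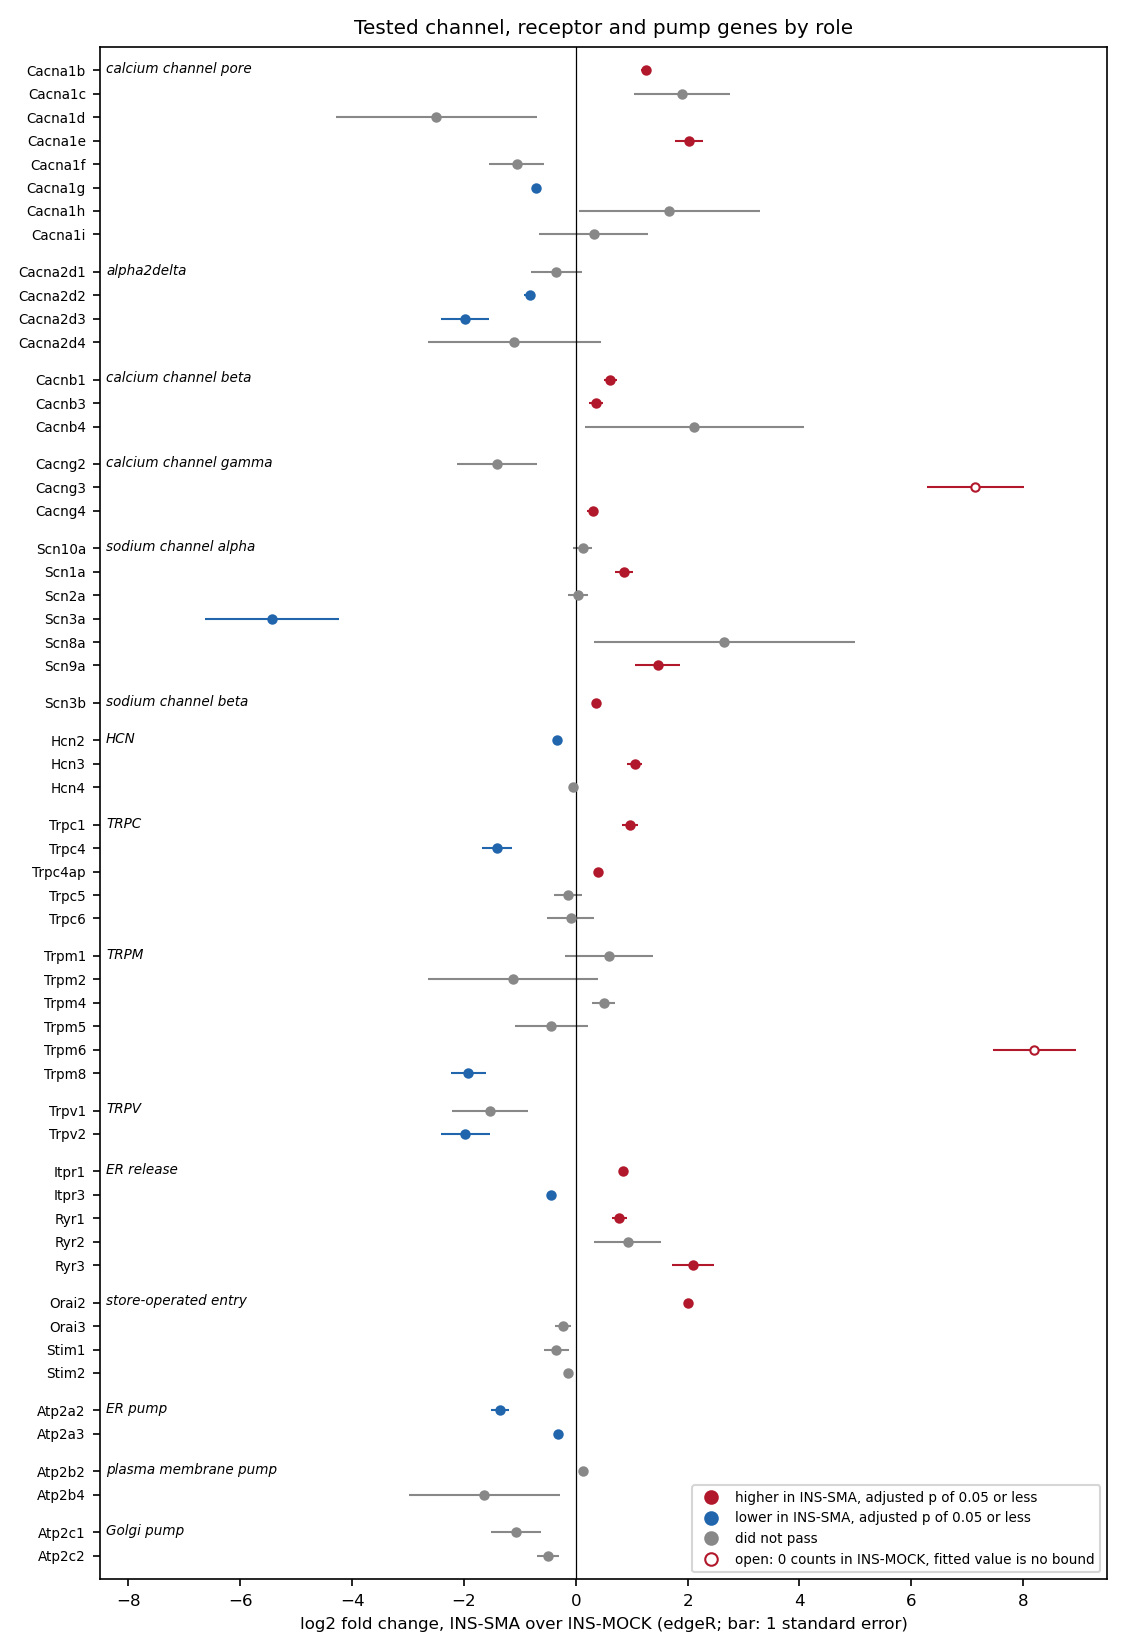
Log2 fold change of 56 of the 59 tested members, INS-SMA over INS-MOCK, with 1 standard error (SE), grouped by role; positive values are higher in INS-SMA. The 17 red members rose, the 11 blue ones fell, the 28 grey ones did not pass, and the open symbols of Cacng3 and Trpm6 mark genes without counts in INS-MOCK.

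Among the pore subunits of voltage-gated calcium channels, which form the ion path and set the channel type, 2 of 8 tested members rose, 1 fell and 5 did not pass. Coordinates of genes are those of the deposited table, for which the processing notes name rn6 as the only rat build. Cacna1b (N-type, chromosome 3, 1740024 to 1924827) had 266, 264 and 233 CPM in the INS-SMA libraries, against 118, 100.3 and 101 CPM in the INS-MOCK libraries. Every INS-SMA library was higher than every INS-MOCK library, and the log2FC was 1.26 (SE 0.09, edgeR adjusted p = 1.2e-04). Cacna1e (R-type, chromosome 13, 71906702 to 72367980) had 9.01, 7.75 and 6.22 CPM in INS-SMA, against 1.82, 2.24 and 1.58 CPM in INS-MOCK. It also separated the groups completely, at a log2FC of 2.02 (SE 0.24, edgeR adjusted p = 9.85e-04).

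The T-type pore gene Cacna1g (chromosome 10, 82129506 to 82197848), whose channels open at small depolarisations, moved the other way. It had 136, 148 and 137 CPM in INS-SMA, against 229, 225 and 232 CPM in INS-MOCK. The spread within each group was small beside the gap between them, with a log2FC of -0.71 (SE 0.04, edgeR adjusted p = 7.08e-05). Cacna1g is the pore gene with the most counts. These values are sums over transcript rows, and the most abundant row alone gave other results: 0.10 for Cacna1g (adjusted p = 0.954), 1.09 for Cacna1b (adjusted p = 0.554) and, for Cacna1e, a larger log2FC that did not pass (adjusted p = 0.125).

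The L-type genes, whose channels carry much of the calcium current of beta cells, did not pass. Cacna1d held 3, 208 and 0 counts in INS-SMA, against 529, 357 and 399 in INS-MOCK. All INS-SMA libraries were lower than all INS-MOCK libraries, but INS-SMA replicate 2 stood apart from the other two; the log2FC was -2.49 (edgeR adjusted p = 0.294). Without that library INS-SMA was left with 3 and 0 counts, and the adjusted p was 0.00533. Cacna1c was at 10.1, 3.44 and 13.1 CPM in INS-SMA and 2.15, 4.44 and 0.556 CPM in INS-MOCK. Its groups overlapped, with a log2FC of 1.90 (edgeR adjusted p = 0.114; 0.0231 with DESeq2). Cacna1f, the L-type gene of the retina, stayed at or below 1.73 CPM in every library.

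Of the other T-type genes, Cacna1h had 2998, 8057 and 5197 counts in INS-SMA and 3288, 0 and 2331 in INS-MOCK. The CPM of the groups did not overlap, yet the INS-MOCK library at 0 left it at a log2FC of 1.68 with an SE of 1.62 (edgeR adjusted p = 0.432). Cacna1i ranged from 0.481 to 4.77 CPM in INS-SMA and from 1.12 to 5.21 CPM in INS-MOCK, and the sign of its log2FC of 0.32 (adjusted p = 0.809) turned to -0.07 when INS-SMA replicate 2 was left out and to -0.05 when INS-MOCK replicate 1 was.

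**Figure D2:**
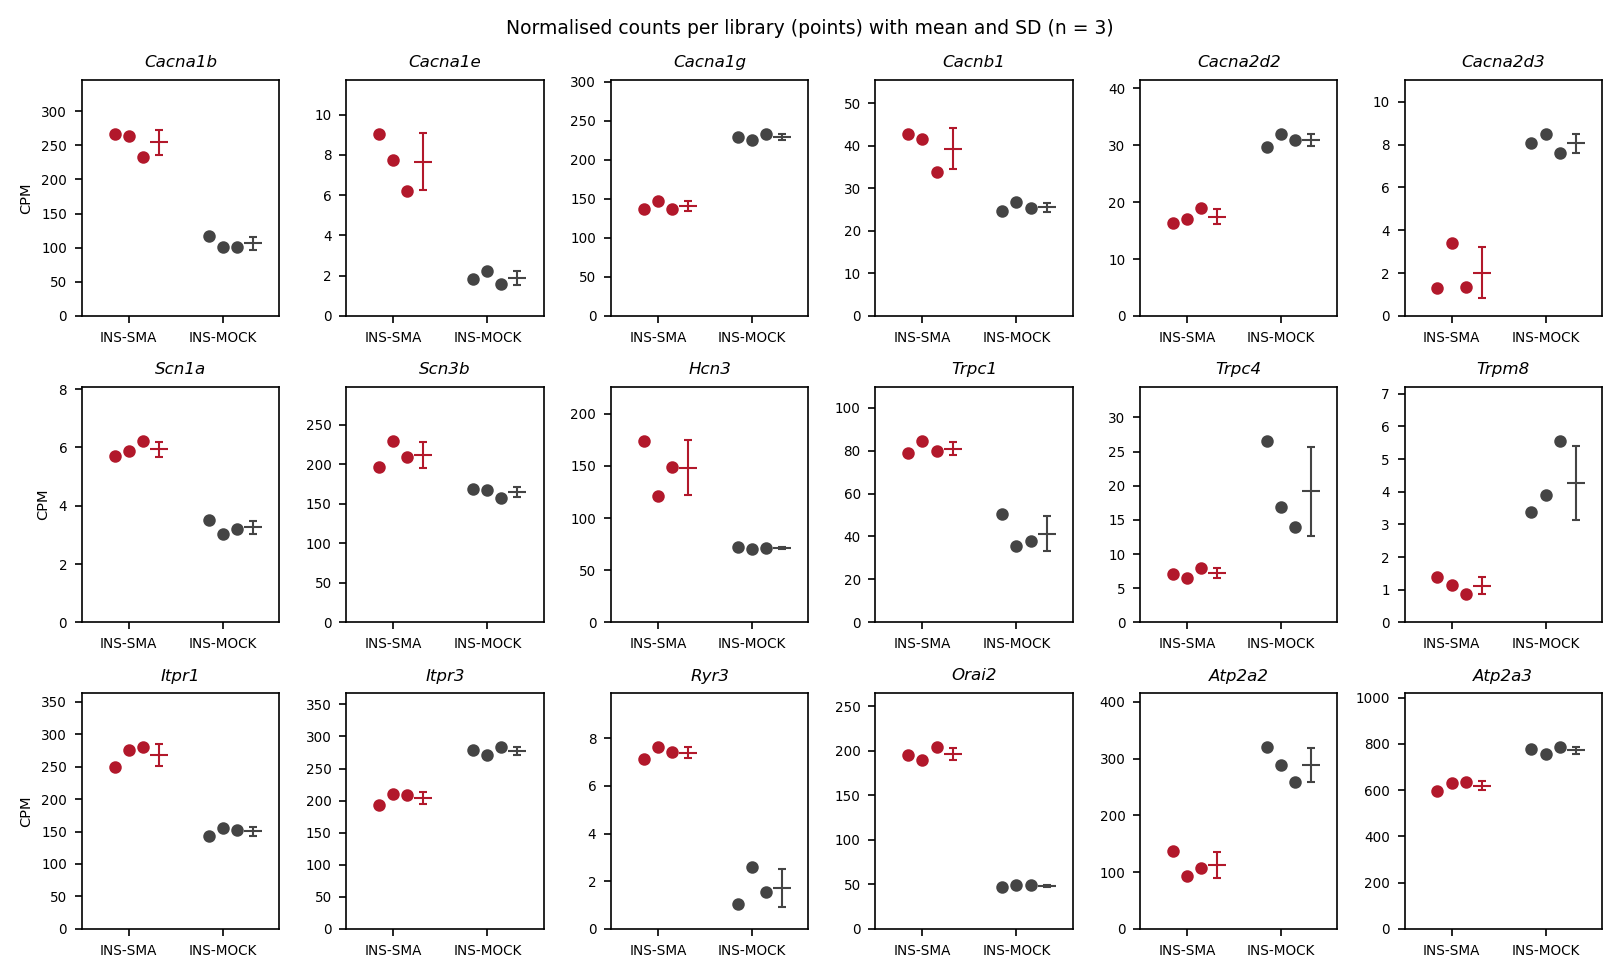
Normalised counts (CPM) of 18 members that passed the test, 1 point per library, with the mean and SD of 3 libraries to the right of the points; INS-SMA in red, INS-MOCK in grey, linear axes from 0. In each panel the points of the groups do not overlap, as for Orai2 (190 to 204 CPM in INS-SMA, 47.5 to 49.5 CPM in INS-MOCK) and Atp2a2 (93.3 to 138 CPM in INS-SMA, 259 to 319.5 CPM in INS-MOCK).

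The α2δ subunits sit outside the membrane and raise the number of channels at the surface; of the 4 tested, Cacna2d2 and Cacna2d3 fell, none rose, and the median log2FC was -0.96. Cacna2d2 had 16.3, 17.0 and 18.9 CPM in INS-SMA, against 29.8, 31.9 and 31.0 CPM in INS-MOCK. All INS-SMA libraries were lower, with a log2FC of -0.83 (SE 0.09, edgeR adjusted p = 6.97e-04; -0.83 and 0.276 in its most abundant row). Cacna2d3 had 1.32, 3.40 and 1.36 CPM in INS-SMA, against 8.09, 8.47 and 7.61 CPM in INS-MOCK, a log2FC of -1.99 (SE 0.43, edgeR adjusted p = 0.0104). It separated the groups too. Cacna2d1, the α2δ gene with the most counts, had 17.3, 44.8 and 15.0 CPM in INS-SMA and 37.5, 27.5 and 32.9 CPM in INS-MOCK; INS-SMA replicate 2 was the highest of all libraries. The log2FC was -0.35 (edgeR adjusted p = 0.56), and -1.02 (adjusted p = 0.00947) without that library. Cacna2d4 was at 1.45 CPM or less; its log2FC was -1.10 (adjusted p = 0.586). INS-SMA replicate 2 held all 30 of its INS-SMA counts, and without that library the adjusted p was 0.0186.

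The β subunits bind the pore inside the cell and carry it to the membrane. Of 3 tested, Cacnb1 and Cacnb3 rose. Cacnb1 had 42.7, 41.5 and 33.7 CPM in INS-SMA, against 24.6, 26.7 and 25.5 CPM in INS-MOCK. Each INS-SMA library was higher, with a log2FC of 0.62 (SE 0.11, edgeR adjusted p = 0.00507). This rise lay in an assembled row with 429, 582 and 510 counts in INS-SMA and 0, 189 and 94 in INS-MOCK, whereas the most abundant row had 261, 302 and 324 counts in INS-SMA and 558, 372 and 497 in INS-MOCK, and that row by itself had a log2FC of -0.47 (adjusted p = 0.0809). Cacnb3 had 412, 376 and 303 CPM in INS-SMA, against 293, 293 and 263 CPM in INS-MOCK, a log2FC of 0.36 (SE 0.12). Its groups were narrowly apart, and the edgeR adjusted p of 0.0493 was 0.108 to 0.162 when any library other than INS-SMA replicate 3 was left out. Cacnb4 held 211, 33 and 11 counts in INS-SMA and 3, 0 and 75 in INS-MOCK, and its log2FC of 2.12 (adjusted p = 0.409) was -0.20 without INS-SMA replicate 1.

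The γ subunits are known mostly as partners of calcium channels and of glutamate receptors in brain and muscle. Of 7 members only 3 could be tested. Cacng4, the member with the most counts, had 114, 113 and 94.2 CPM in INS-SMA, against 94.7, 84.5 and 81.1 CPM in INS-MOCK. The lowest INS-SMA library lay just below the highest INS-MOCK library, and the log2FC was 0.31 (SE 0.10, edgeR adjusted p = 0.0459; 0.126 to 0.153 without INS-SMA replicate 1 or 2 or INS-MOCK replicate 2 or 3). Cacng3 had 20, 14 and 14 counts in INS-SMA and 0 in each INS-MOCK library, so it was at least 6.18-fold higher against a floor of 3 counts per library (edgeR adjusted p = 0.00528). Cacng2 had 15.5, 2.48 and 14.5 CPM in INS-SMA and 36.8, 33.3 and 16.2 CPM in INS-MOCK. It was lower in each INS-SMA library but did not pass (log2FC -1.41, adjusted p = 0.155; 0.0469 with DESeq2). Cacng6, Cacng7 and Cacng8, all on chromosome 1, were not tested. Cacng7 had 1215 counts in INS-MOCK replicate 2 and 3 or fewer in each of the other libraries, and Cacng6 had 93 counts in that same library and 0 elsewhere. Cacng8 held 2 to 7 counts per library and Cacng5 at most 15.

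Sodium channel α subunits form the pores of the channels that start action potentials. Of 8 members 6 were tested; Scn1a and Scn9a rose, Scn3a fell and 3 did not pass. Scn1a had 5.71, 5.87 and 6.22 CPM in INS-SMA, against 3.51, 3.05 and 3.21 CPM in INS-MOCK, with no overlap and a log2FC of 0.87 (SE 0.16, edgeR adjusted p = 0.00611). Scn9a, a channel gene of sensory neurons that is also described in mouse beta cells, had 4.75, 4.04 and 1.94 CPM in INS-SMA, against 1.28, 1.57 and 1.03 CPM in INS-MOCK. The log2FC was 1.46 (SE 0.40), and the edgeR adjusted p of 0.0258 was 0.0544 to 0.0861 when any library other than INS-SMA replicate 3 was left out. Scn3a, the other channel described in mouse beta cells, had 0, 4 and 0 counts in INS-SMA and 30, 101 and 70 in INS-MOCK. Every INS-MOCK library was above every INS-SMA library, with a log2FC of -5.43 (SE 1.20, edgeR adjusted p = 0.0112).

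Scn2a, which had the most counts of the α subunits, was at 11.8, 13.4 and 11.3 CPM in INS-SMA and 9.21, 13.1 and 13.2 CPM in INS-MOCK. The groups overlapped (log2FC 0.04, SE 0.19, edgeR adjusted p = 0.869), and the sign turned to -0.03 when INS-SMA replicate 2 was left out and to -0.11 when INS-MOCK replicate 1 was. It was -1.15 in the most abundant row (adjusted p = 0.763). Scn10a was at 8.42 to 11.9 CPM in all 6 libraries, with a log2FC of 0.12 (adjusted p = 0.593) that was -0.01 without INS-SMA replicate 2. Scn8a had 231 counts in INS-SMA replicate 3 and 18 or fewer in any other library; its log2FC was 2.66 (adjusted p = 0.387), and without that library, which leaves INS-SMA at 0, the sign turned (adjusted p = 0.165). Scn4a held 10 counts in INS-SMA replicate 2, 6 in INS-MOCK replicate 3 and 0 elsewhere. Scn7a had 15, 0 and 33 counts in INS-SMA and 0 in each INS-MOCK library. Its groups overlapped at 0, and it was not tested.

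Of these, 5 genes lie within a stretch of chromosome 3, in the order Scn3a (51532627 to 51643140), Scn2a, Scn1a, Scn9a and Scn7a (up to 52849907). Scn3a at one end of this stretch fell, Scn2a, the next of them, did not pass, and Scn1a and Scn9a further along rose. These paralogs have similar sequences, and no source used here says how the counting divided shared reads among them.

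The β subunits of sodium channels are single-pass proteins that tune gating and adhesion. Scn3b had 197, 229.6 and 209 CPM in INS-SMA, against 169, 168 and 157 CPM in INS-MOCK. It separated the groups at a log2FC of 0.36 (SE 0.07, edgeR adjusted p = 0.00554; 0.39 and 0.557 in its most abundant of 7 rows). Scn4b was not tested, at 0.413 to 1.14 CPM in INS-SMA and 0.128 to 0.289 CPM in INS-MOCK.

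HCN channels open on hyperpolarisation and are gated by cyclic AMP. Hcn3 rose, Hcn2 fell and Hcn4 did not pass. Hcn3 had 174, 121 and 149 CPM in INS-SMA, against 72.4, 70.4 and 71.1 CPM in INS-MOCK. The INS-SMA libraries spread more than the INS-MOCK libraries but lay wholly above them, with a log2FC of 1.05 (SE 0.13, edgeR adjusted p = 0.0012; 1.64 in its most abundant row). Hcn2 had 46.9, 52.7 and 49.4 CPM in INS-SMA, against 64.3, 60.1 and 63.1 CPM in INS-MOCK, a log2FC of -0.33 (SE 0.06, edgeR adjusted p = 0.00695). Its groups did not overlap. Hcn4, the HCN gene with the most counts, had 281, 297 and 287 CPM in INS-SMA and 297, 295 and 299 CPM in INS-MOCK. These groups overlapped; the log2FC was -0.04 (SE 0.03, edgeR adjusted p = 0.312); it was 0.05 without TMM factors and 0.60 in the most abundant row (adjusted p = 0.399).

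TRPC channels are cation channels opened downstream of phospholipase C. Trpc1 had 78.7, 84.5 and 79.6 CPM in INS-SMA, against 50.5, 35.6 and 37.7 CPM in INS-MOCK. It was higher in each INS-SMA library, at a log2FC of 0.97 (SE 0.14, edgeR adjusted p = 0.00234; 2.54 and 0.272 in its most abundant row). Trpc4 had 7.09, 6.52 and 7.93 CPM in INS-SMA, against 26.6, 16.9 and 14.0 CPM in INS-MOCK, a log2FC of -1.42 (SE 0.27, edgeR adjusted p = 0.00631). Here INS-MOCK varied more, but its lowest library was still above all INS-SMA libraries. Trpc4ap, the ubiquitin ligase adaptor, had 525, 532 and 516 CPM in INS-SMA, against 398, 397 and 394 CPM in INS-MOCK, a log2FC of 0.40 (SE 0.03, edgeR adjusted p = 8.81e-05). Trpc5 and Trpc6 lay at 1.24 to 3.34 CPM in INS-SMA and 1.45 to 3.12 CPM in INS-MOCK and did not pass, with log2FCs of -0.14 and -0.09. Without INS-SMA replicate 2 the signs turned, to 0.04 for Trpc5 and 0.18 for Trpc6; that of Trpc6 also turned without INS-MOCK replicate 1 (0.06) or 2 (0.02) and without TMM factors, and that of Trpc5 in its most abundant row (0.08).

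TRPM channels include the calcium-activated Trpm4 and Trpm5 and the ADP-ribose-gated Trpm2, all known from beta cells, the magnesium channel Trpm6 and the cold receptor Trpm8. Of 6 tested members 1 rose and 1 fell. Trpm6 had 25, 50 and 29 counts in INS-SMA and 0 in each INS-MOCK library, at least 12.7-fold higher (edgeR adjusted p = 0.00235). Trpm8 had 1.38, 1.15 and 0.856 CPM in INS-SMA, against 3.39, 3.90 and 5.56 CPM in INS-MOCK, a log2FC of -1.92 (SE 0.31, edgeR adjusted p = 0.00339). The highest INS-SMA library was below the lowest INS-MOCK library. Trpm2, the TRPM gene with the most counts, had 27, 1116 and 17 counts in INS-SMA and 1073, 865 and 787 in INS-MOCK. In CPM, INS-SMA replicate 2 (51.2) was above every INS-MOCK library (33.6 to 44.3) while the other two INS-SMA libraries were far below; the log2FC was -1.12 (adjusted p = 0.57), and -5.11 (adjusted p = 0.00158) without replicate 2. Trpm4 had 5.47, 4.63 and 5.29 CPM in INS-SMA and 3.51, 3.05 and 4.32 CPM in INS-MOCK, with no overlap, and did not pass (log2FC 0.50, adjusted p = 0.0912; 0.0387 with DESeq2). Trpm5 was at 1.14 to 1.71 CPM in INS-SMA and 0.769 to 3.90 CPM in INS-MOCK, and its log2FC of -0.44 (adjusted p = 0.611) was 0.56 without INS-MOCK replicate 2. Trpm1 held 15 counts or fewer in each library.

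Of the 4 TRPV members, heat- and ligand-gated cation channels and calcium-selective epithelial channels, 2 were tested, of which 1 fell. Trpv2 had 4, 12 and 15 counts in INS-SMA, against 30, 45 and 53 in INS-MOCK, a log2FC of -1.97 (SE 0.44, edgeR adjusted p = 0.0112). Its annotated row had 4, 12 and 15 counts in INS-SMA and 30, 0 and 0 in INS-MOCK. An assembled row held the rest, with 0 in each INS-SMA library and 0, 45 and 53 counts in INS-MOCK. Trpv1, the capsaicin receptor gene, had 2.82, 0.734 and 4.94 CPM in INS-SMA and 10.4, 8.43 and 5.90 CPM in INS-MOCK. Neither gene's groups overlapped, but Trpv1 did not pass (log2FC -1.54, adjusted p = 0.109; 0.0319 with DESeq2). Trpv3 and Trpv5 were not tested; Trpv3 had 0 to 7 counts in INS-SMA libraries and 8 to 23 in INS-MOCK libraries, and Trpv5 had 0, 9 and 3 counts in INS-SMA and 0 in INS-MOCK. Trpv1, Trpv3 and the ER pump gene Atp2a3 lie within 1 stretch of chromosome 10 (59529785 to 59860987).

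Release channels of the ER moved in both directions: of 5 tested, 3 rose, 1 fell and Ryr2 did not pass. The IP3 receptor genes Itpr1 and Itpr3 changed in opposite directions. Their promoters are shown for that contrast, from RefSeq on GRCr8, 250 bases before to 50 after the annotated start, 5′ to 3′ on the gene's strand. Capitals mark CACGTG, the only form of the E-box that was searched.
Itpr1 (chr4:142743190-142743489, plus strand): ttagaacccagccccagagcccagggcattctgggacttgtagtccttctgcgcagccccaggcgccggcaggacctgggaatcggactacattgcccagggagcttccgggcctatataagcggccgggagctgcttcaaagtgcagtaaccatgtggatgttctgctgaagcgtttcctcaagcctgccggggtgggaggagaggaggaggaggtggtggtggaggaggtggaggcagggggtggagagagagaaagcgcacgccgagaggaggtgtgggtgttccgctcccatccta
Itpr3 (chr20:5138562-5138861, plus strand): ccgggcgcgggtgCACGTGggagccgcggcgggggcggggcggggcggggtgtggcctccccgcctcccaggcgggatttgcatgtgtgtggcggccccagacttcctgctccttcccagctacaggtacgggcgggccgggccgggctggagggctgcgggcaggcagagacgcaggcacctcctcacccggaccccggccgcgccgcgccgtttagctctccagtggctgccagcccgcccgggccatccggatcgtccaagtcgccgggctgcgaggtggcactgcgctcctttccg

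Itpr3's window is richer in G and C (76.0%, against 62.0% for Itpr1) and holds CACGTG at position -237 from the start. Other forms of the E-box were not searched in either window. Windows were found for 51 of the 70 members, 10 that rose and 10 that fell among them. On both strands, CACGTG was in 6.42% of the 33469 windows of the table and in 0 of those 10 rising and 1 of those 10 falling members. The interferon-stimulated response element (3.92% of windows) was in Scn10a alone of the members, and neither TGACGTCA, the cyclic AMP element (1.83%), nor the ER stress response element (0.0657%) was in any of the 51.

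Itpr1, the IP3 receptor best known from neurons, had 249, 275 and 279.5 CPM in INS-SMA, against 142, 155 and 153 CPM in INS-MOCK. Every INS-SMA library was higher, with a log2FC of 0.84 (SE 0.06, edgeR adjusted p = 1.35e-04). Itpr3 had 193, 209.9 and 209 CPM in INS-SMA, against 279, 271 and 283 CPM in INS-MOCK. Here every INS-SMA library was lower, with a log2FC of -0.44 (SE 0.04, edgeR adjusted p = 4.65e-04). The ryanodine receptors are large release channels opened by calcium. Ryr1 had 18.5, 18.1 and 15.1 CPM in INS-SMA, against 9.62, 10.5 and 9.96 CPM in INS-MOCK, a log2FC of 0.78 (SE 0.13, edgeR adjusted p = 0.00349). Ryr3 had 7.15, 7.62 and 7.43 CPM in INS-SMA, against 1.03, 2.60 and 1.54 CPM in INS-MOCK, a log2FC of 2.10 (SE 0.37, edgeR adjusted p = 0.00468). Both separated the groups. Ryr2, the isoform most often described in beta cells, had 12.7, 10.4 and 15.3 CPM in INS-SMA and 2.68, 12.8 and 4.70 CPM in INS-MOCK; INS-MOCK replicate 2 lay among the INS-SMA values. Its log2FC was 0.93 (adjusted p = 0.242), and 1.79 (adjusted p = 0.0131) without that library.

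Store-operated entry held the member with the smallest adjusted p of all. Orai2, a pore subunit of the calcium channel that opens when the ER store is empty (chromosome 12, 23544287 to 23564569), had 195, 189.9 and 204 CPM in INS-SMA, against 47.5, 49.0 and 49.5 CPM in INS-MOCK. The spread within each group was small beside the gap, and the log2FC was 2.01 (SE 0.04, edgeR adjusted p = 4.39e-06). One of its 2 rows, an assembled transcript, had 873, 129 and 481 counts in INS-SMA and 0 in each INS-MOCK library; the annotated row had 2375, 4009 and 4760 counts in INS-SMA and 1150, 1094 and 1158 in INS-MOCK. Its partners did not pass. Orai3 had 15.5, 14.5 and 15.5 CPM in INS-SMA and 16.0, 20.9 and 16.5 CPM in INS-MOCK (log2FC -0.23, SE 0.14, adjusted p = 0.222). The sensor gene Stim1 had 66.0, 93.0 and 64.8 CPM in INS-SMA and 71.2, 106 and 108 CPM in INS-MOCK (-0.35, SE 0.22, adjusted p = 0.24). Stim2 averaged 54.7 ± 1.92 CPM in INS-SMA and 59.9 ± 3.56 CPM in INS-MOCK (-0.13, SE 0.06, adjusted p = 0.144).

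The SERCA pump genes of the ER, which refill the store, both fell. Atp2a2 (SERCA2, chromosome 12, 39553903 to 39603326) had 138, 93.3 and 107 CPM in INS-SMA, against 319.5, 288 and 259 CPM in INS-MOCK. All INS-SMA libraries were far below all INS-MOCK libraries, with a log2FC of -1.36 (SE 0.16, edgeR adjusted p = 0.001). Atp2a3 (SERCA3) had 597, 629 and 633 CPM in INS-SMA, against 777, 755 and 784 CPM in INS-MOCK. It fell less, with no overlap and a log2FC of -0.32 (SE 0.04, edgeR adjusted p = 7.41e-04). In its most abundant row alone the change was -0.18 (adjusted p = 0.108); that row held 99.4% to 99.5% of the gene's counts in INS-SMA and 99.5%, 99.7% and 83.4% in INS-MOCK.

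Pumps of the plasma membrane and the Golgi did not pass. Atp2b2 had 76.7, 77.4 and 78.1 CPM in INS-SMA and 67.3, 67.3 and 77.2 CPM in INS-MOCK, which overlapped; the log2FC was 0.13 (SE 0.07, adjusted p = 0.155), and 0.20 (adjusted p = 0.0194) without INS-MOCK replicate 3. Atp2b4 had 111, 570 and 26 counts in INS-SMA and 1207, 1146 and 93 in INS-MOCK (log2FC -1.64, adjusted p = 0.358). INS-SMA replicate 2 was high and INS-MOCK replicate 3 low within their groups: 1 of its 2 rows held 0, 503 and 0 counts in INS-SMA and 1117, 1058 and 0 in INS-MOCK. Atp2b1 and Atp2b3 held 15 counts or fewer per library. Atp2c1, the Golgi pump gene with the most counts, had 43.5, 31.2 and 12.4 CPM in INS-SMA and 60.4, 60.1 and 61.9 CPM in INS-MOCK. It was lower in every INS-SMA library (log2FC -1.07, SE 0.44, adjusted p = 0.0895), and the adjusted p was 0.0145 with DESeq2, 0.0206 without INS-SMA replicate 3 and 0.0424 without INS-SMA replicate 1. Atp2c2 had 2.76, 3.62 and 3.73 CPM in INS-SMA and 4.87, 4.93 and 4.57 CPM in INS-MOCK (-0.50, adjusted p = 0.0769; 0.0467 with DESeq2), and 0.82 (adjusted p = 0.714) in its most abundant row.

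In 8 of 59 tested members (13.6%) a library stood at least 4-fold from both others of its group on the log2(CPM + 0.5) scale, beside 7.9% of all tested genes. These were Cacna1d, Cacna1h, Cacna1i, Cacnb4, Cacng2, Scn8a, Trpm2 and Atp2b4. No single library accounted for them: 2, 3 and 2 of these members involved INS-SMA replicates 1, 2 and 3, and 0, 1 and 2 involved INS-MOCK replicates 1, 2 and 3. Over all tested genes each library stood apart in 1.58% to 1.80% of genes.

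**Figure D3:**
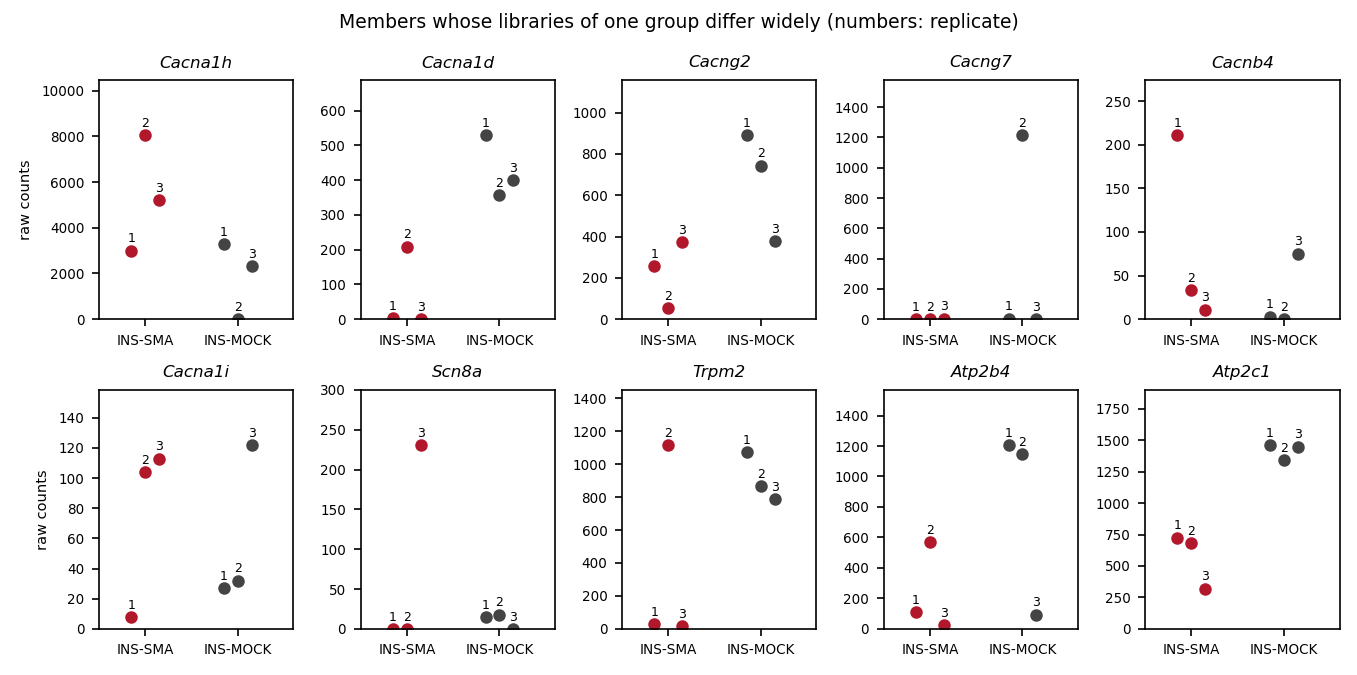
Raw counts in the 6 libraries for 10 members whose libraries within a group differed widely, INS-SMA left in red, INS-MOCK right in grey, with replicate numbers beside the points. A single library sets the group's level in Cacng7 (1215 counts in INS-MOCK replicate 2), Scn8a (231 in INS-SMA replicate 3) and Trpm2 (1116 in INS-SMA replicate 2), and a single library is at 0 in Cacna1h (INS-MOCK replicate 2).

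The division of a gene's counts over its rows was less stable than the sum. In Cacna1b, with 18 rows, the most abundant row took 1.4%, 79.9% and 18.3% of the gene's counts in INS-SMA and 57.0%, 34.2% and 24.3% in INS-MOCK. In Cacna1g, with 10 rows, these shares were 82.1%, 77.4% and 8.8% in INS-SMA and 8.8%, 76.4% and 17.1% in INS-MOCK. The gene sums of both were nonetheless close between replicates. In Itpr3 the most abundant row took 92.0% to 94.6% in INS-SMA and 97.7% to 98.1% in INS-MOCK. Of the 70 members 33 consisted of a single row.

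**Figure D4:**
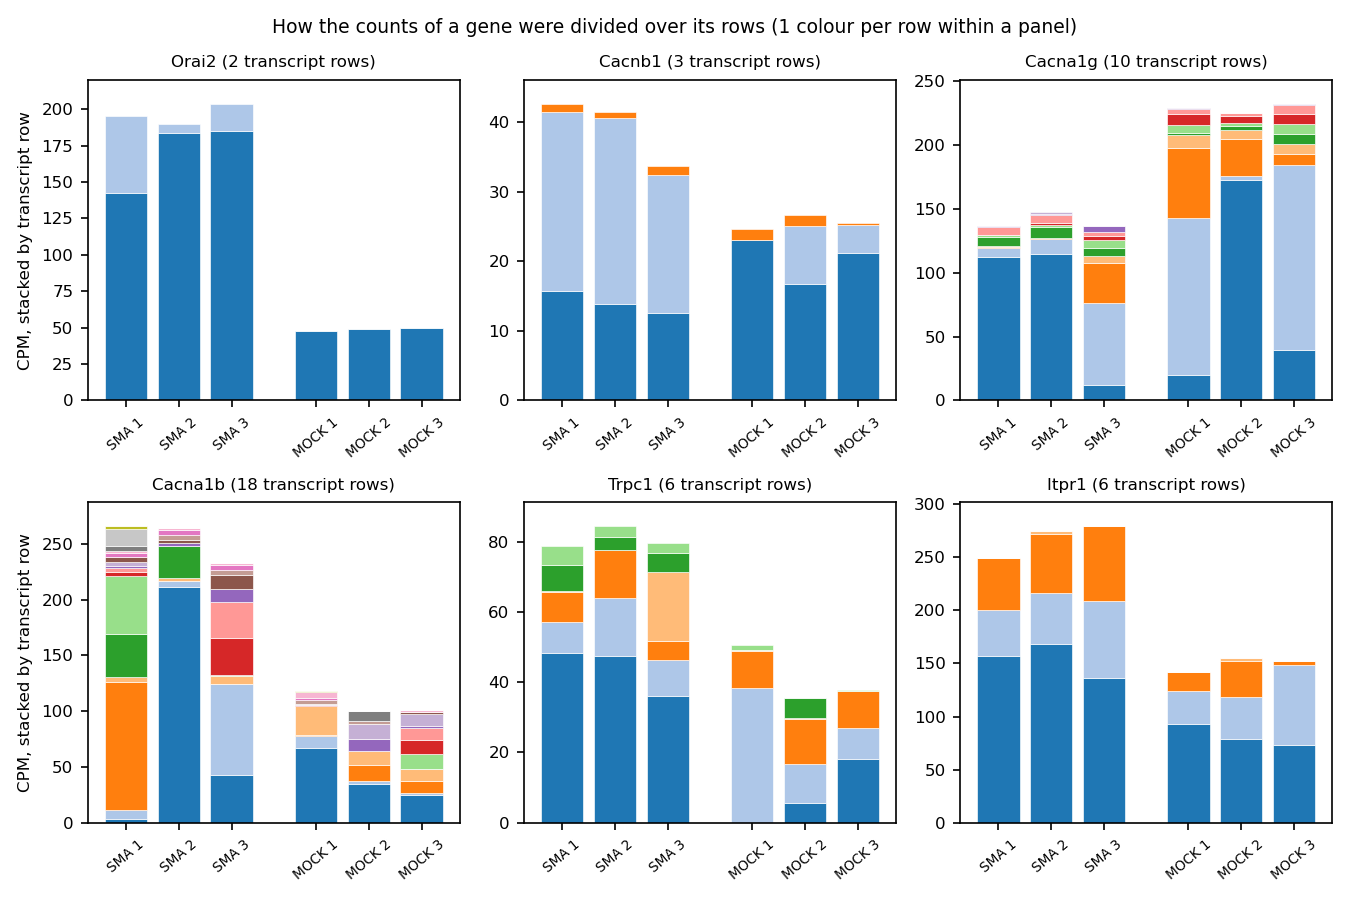
CPM of 6 members in each library, stacked by transcript row (1 colour per row within a panel), INS-SMA libraries left and INS-MOCK libraries right. The bar heights separate the groups in all 6 panels, while the split over rows differs between replicates, as in Cacna1g, where the most abundant row took 8.8% to 82.1% of the counts in INS-SMA and 8.8% to 76.4% in INS-MOCK.

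Calcium handling genes outside the symbol rule were read from a list of 70, of which 62 had a named row and 49 were tested. Of these 12 rose and 13 fell, with a median log2FC of -0.06, where 28.1% and 27% of all tested genes did. The sodium-calcium exchanger genes parted: Slc8a2 was at 27.5 ± 5.10 CPM in INS-SMA and 8.07 ± 0.728 CPM in INS-MOCK (log2FC 1.77), and Slc8a1 at 4.06 ± 1.14 CPM in INS-SMA and 10.1 ± 2.14 CPM in INS-MOCK (-1.32). Micu2, which encodes a gatekeeper of the mitochondrial calcium uniporter, rose, at 76.2 ± 3.62 CPM in INS-SMA and 40.6 ± 0.538 CPM in INS-MOCK (0.91), while the pore gene Mcu did not pass (0.01). The calmodulin gene Calm2 (-1.72) fell, as did Calr (-2.38), which encodes the calcium-binding ER chaperone calreticulin. Calb1, a cytosolic calcium buffer, rose (1.40), and so did Pln, which encodes the SERCA inhibitor phospholamban, at 4.17 ± 0.464 CPM in INS-SMA and 0.521 ± 0.335 CPM in INS-MOCK (2.98). Camkk1, a calcium/calmodulin-dependent kinase kinase, was at 397 ± 15.4 CPM in INS-SMA and 13.8 ± 12.9 CPM in INS-MOCK (4.84). Each SD is over 3 libraries, and calls are edgeR's at an adjusted p of 0.05.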

How the data were processed

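RNA-seq was analysed in 6 samples of INS-1 cells, 3 INS-SMA and 3 INS-MOCK, grouped by their titles. The authors deposited raw counts, whole numbers per transcript row, without pooling; of 101905 rows, 35604 name a gene. HISAT2, HISAT and DESeq2 and the builds hg19 and rn6 are named, per the submitters' processing notes, without roles; no source used here gives the counter, the strand setting or the annotation. Without a strand setting, reads of a gene and of an overlapping or antisense gene cannot be told apart.

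Counts were summed per gene. The 66301 unnamed rows, with 32.7% to 36.7% of counts, entered neither library sizes nor tests. edgeR 4.0.16 (filterByExpr, TMM factors, glmQLFit and glmQLFTest, group as the only term) tested 13363 genes, with Benjamini-Hochberg adjustment and a threshold of 0.05. SE is the log2 fold change divided by the square root of F, in size. CPM are on TMM-scaled sizes and are not per length, so levels are not compared between genes. Floors of 3 counts (0.117 to 0.180 CPM) cover counting error only. Alternatives were DESeq2 1.42.0, other scalings and filters, the most abundant row, a replicate block and leaving out each library. The procedure was also tested on simulated counts. Replicates differed by more than counting noise (46.2 to 59.7 chi-square per degree of freedom). The labels call them biological replicates and say nothing of separate cultures, so p-values set the group difference against the spread between these samples only.

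Members and lists were chosen with earlier results of these data known. By rule, values per library are given for up to 3 called members per role group, by smallest adjusted p, and for the member with most counts in each; library values of other members, and genes named from the list outside the rule, were chosen after their values were seen. Values of some genes are not reported here; counts over members include them.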

Additional observations from a re-analysis of the deposited data

How the results depend on the processing

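Counts of members past the threshold were 20 higher and 11 lower. They were 12 and 7 when only genes with a mean of at least 5 CPM were tested, where fewer members were in the test (38), and 6 members were lower when each gene was read from its most abundant row (15 higher). The cause was not tested. Leaving out 1 library at a time gave 16 to 19 higher and 11 to 15 lower members, and 3458 to 3672 higher and 3239 to 3474 lower genes in all. The other settings gave counts within 1.5 times. Single genes turned sign with a call at stake only in their most abundant row, Cacna1g at 0.10 and Cacnb1 at -0.47. In all, 16 of the 31 calls held in every one of the 15 other settings that tested the gene. The labels give both groups replicate numbers 1 to 3. Deviations of same-numbered libraries from their group means correlated at -0.03 to -0.01, so no shared effect of the number was seen. These correlations cannot tell whether same-numbered samples were prepared together. With the number as a replicate block 16 members were higher and 12 lower. The addition of unnamed rows that overlap a gene was not run, because the unnamed rows carry no coordinates. The 11 members below the filter on low counts have no test.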
